A study of Mus musculus with 24 samples.

Results

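Glucose uptake, glycolysis and the pentose phosphate pathway were examined through 36 genes, namely the 3 glucose transporter genes Slc2a1, Slc2a3 and Slc2a4, the enzymes that carry glucose to lactate, the monocarboxylate transporters that carry lactate across the membrane, the enzymes of the pentose phosphate pathway, and the bifunctional and bisphosphatase enzymes that set the direction of the fructose phosphate step. All 36 were found among the 41710 genes of each of 2 expression tables, 35 by symbol and Aldoa by its identifier, ENSMUSG00000030695. The tables held poly-A RNA-seq of murine embryonic fibroblasts (MEFs) from E14 to E16 embryos, one for primary and one for immortalized cells, with 3 libraries in each of 4 genotypes. The embryos bore floxed alleles of Myc (exons 2 and 3), of Mlx (exons 3 to 7) or of both, and a Cre recombinase fused to the estrogen receptor and driven by the ubiquitous ROSA26 promoter. Wild-type (WT) cells had intact loci, MycKO cells had lost Myc, MlxKO cells had lost Mlx, and double-knockout (DKO) cells had lost both, after exposure to 500 nM 4-hydroxytamoxifen (4OHT) with a daily change. Exposure lasted at least 7 days in primary cells and 10 days in immortalized cells, ended at least 3 days before study, and had an ethanol vehicle as its control. Immortalized WT cells were kept without 4OHT, and whether the sequenced primary WT cells received it is not given in the sources used here. Primary RNA was taken on day 10. Each MEF culture pooled the cells of at least 6 embryos, and the immortalized cells had been transduced with SV40 T-antigen before excision. The knockouts were derived from different floxed lines, and which line or lines gave the sequenced WT cells is not given in the sources used here. Any difference between genotypes, in either table, may therefore include a difference between lines, which was not tested. In immortalized cells every comparison of a knockout with WT also sets exposed against unexposed cells, so genotype and exposure cannot be told apart there.

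Glucose enters fibroblasts mainly through facilitative transporters, is trapped by hexokinase, and is either split by glycolysis into pyruvate and lactate or drawn off at glucose 6-phosphate into the pentose phosphate pathway, which supplies NADPH and ribose for nucleotides. Myc with its partner Max, and Mlx with its partners MondoA and ChREBP, bind related E-box sequences of the form CACGTG. Myc is known as an activator of glycolytic genes in growing cells, and the Mlx partners as sensors of glucose 6-phosphate whose best known targets, Txnip and Arrdc4, restrain glucose uptake.

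The values were CPM, read counts that the submitters' software scaled to library size and between libraries. Each library held 15986856 to 20966163 reads on genes in primary and 17541112 to 19851300 in immortalized MEFs, so 3 reads corresponded to 0.145 to 0.196 CPM. Differences are given as log2 of CPM + 1, which understates changes of low genes, with the standard error (SE) and the limma p-value adjusted by Benjamini-Hochberg over all genes tested. A gene was tested if it reached 1 CPM in 3 of the 12 libraries, and it was called higher or lower at an adjusted p under 0.05. The study calls the primary libraries of a group biological replicates, but no source used here says that the 3 of a group came from separate cultures, so the p-values measure the spread between these libraries, which may be technical. Myc fell from 89.8 to 100.1 CPM in primary WT to 25.8 to 26.8 in MycKO and 19.9 to 22.9 in DKO cells, reads from the exon outside the deleted exons 2 and 3 included, and Mlx fell from 20.5 to 26.0 CPM in WT to 13.0 to 14.0 in MlxKO (-0.76, SE 0.11, adjusted p = 0.00040) and 9.73 to 12.0 in DKO cells (-1.02, SE 0.11, adjusted p = 1.5e-06). In immortalized MEFs Myc was 48.1, 39.9 and 177 CPM in the 3 WT libraries, numbered WT2, WT3 and WT4, 9.96 to 17.2 in MycKO and 4.25 to 8.02 in DKO. Mlx was 20.5 to 25.1 CPM in immortalized WT, 12.1 to 17.0 in MlxKO and 14.5 to 18.04 in DKO, where it did not pass the test (-0.44, adjusted p = 0.069). WT4 stood apart from the other immortalized WT libraries, with a Pearson r across genes as low as 0.943 within that group against at least 0.983 in the other groups, and results without it are given with the counts. The fibroblast markers Col1a1, Col1a2, Col3a1, Pdgfra, Pdgfrb, Thy1, Vim, Dcn, Lum and Fn1 summed to 42753 to 58686 CPM in primary and 18011 to 34569 in immortalized libraries, and none of the 10 was at 0 throughout a genotype. Macrophage markers summed to 5.68 to 11.9 CPM in immortalized libraries, with 4 to 6 of the 10 at 0 throughout a genotype.

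Per kilobase of the canonical transcript, the scale on which genes can be compared with each other, levels along the glycolytic trunk were uneven. In both WT groups the main gene of each step from aldolase to lactate dehydrogenase stood above glucose entry, phosphofructokinase and the pentose phosphate branch. The phosphofructokinases Pfkl, Pfkp and Pfkm had means of 25.9, 11.9 and 5.91 CPM per kb in primary WT cells. In primary WT cells Gapdh led with 943 ± 128 CPM per kb (mean ± SD, n = 3 libraries), followed by Eno1 with 892 ± 35.7 and Pkm, pyruvate kinase, with 809 ± 86.6. Their ranges overlapped. Slc2a1, which encodes the transporter GLUT1, stood at 28.4 ± 1.03 and the hexokinase Hk1 at 23.4 ± 3.07, while the pentose phosphate enzymes ran from Pgls with 79.4 ± 2.43 down to Rpia with 5.11 ± 0.568. In immortalized WT cells Pkm (649 ± 40.6) and Eno1 (600.3 ± 124) led, with overlapping ranges. Low members were Slc2a3, Pfkfb1 and Aldoc, and 3 members stayed under the filter in both tables, leaving 33 tested. Slc2a4, the insulin-responsive transporter GLUT4, reached 0.339, 0.380 and 0.409 CPM in primary WT, 0.320, 0.478 and 0.770 in MlxKO, 1.11, 0.916 and 0.498 in MycKO and 0.613, 0.898 and 0.691 in DKO cells. All 3 MycKO and all 3 DKO libraries lay above all 3 WT libraries for Slc2a4, at levels that were not tested and reached 1.11 CPM at most. In immortalized cells Slc2a4 stayed between 0.0569 and 0.824 CPM with the 3 MlxKO libraries above those of WT and the other knockouts overlapping with WT. The fructose bisphosphatase genes Fbp1 and Fbp2, which reverse the phosphofructokinase step in liver and muscle, were listed at 0 in all but 3 of their library values, each of which was a single read.

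Several members share sequence with other genes, some of which are near-identical copies. Of the 50-base words of its canonical transcript, the share that also occurs in a transcript of another gene was 85.8% for Aldoa, 82.5% for Gapdh, 68.0% for Pgk1, 63.6% for Eno1, 40.9% for Pgam1, 38.7% for Pfkfb2 and 34.2% for Pkm, so the level of these genes depends on how reads with several matches were assigned. To a lesser degree this holds for Ldhb (22.9%), Gpi1 (19.8%), Ldha (19.1%) and Taldo1 (12.8%). The share was at most 7.51% (Tpi1) in the other members. Among the copies listed in the tables, mean levels were 0.518 CPM for Gm10358, a copy of Gapdh, 0.676 for Eno1b and 0.194 for a second Aldoa entry in primary cells.

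**Figure D1:**
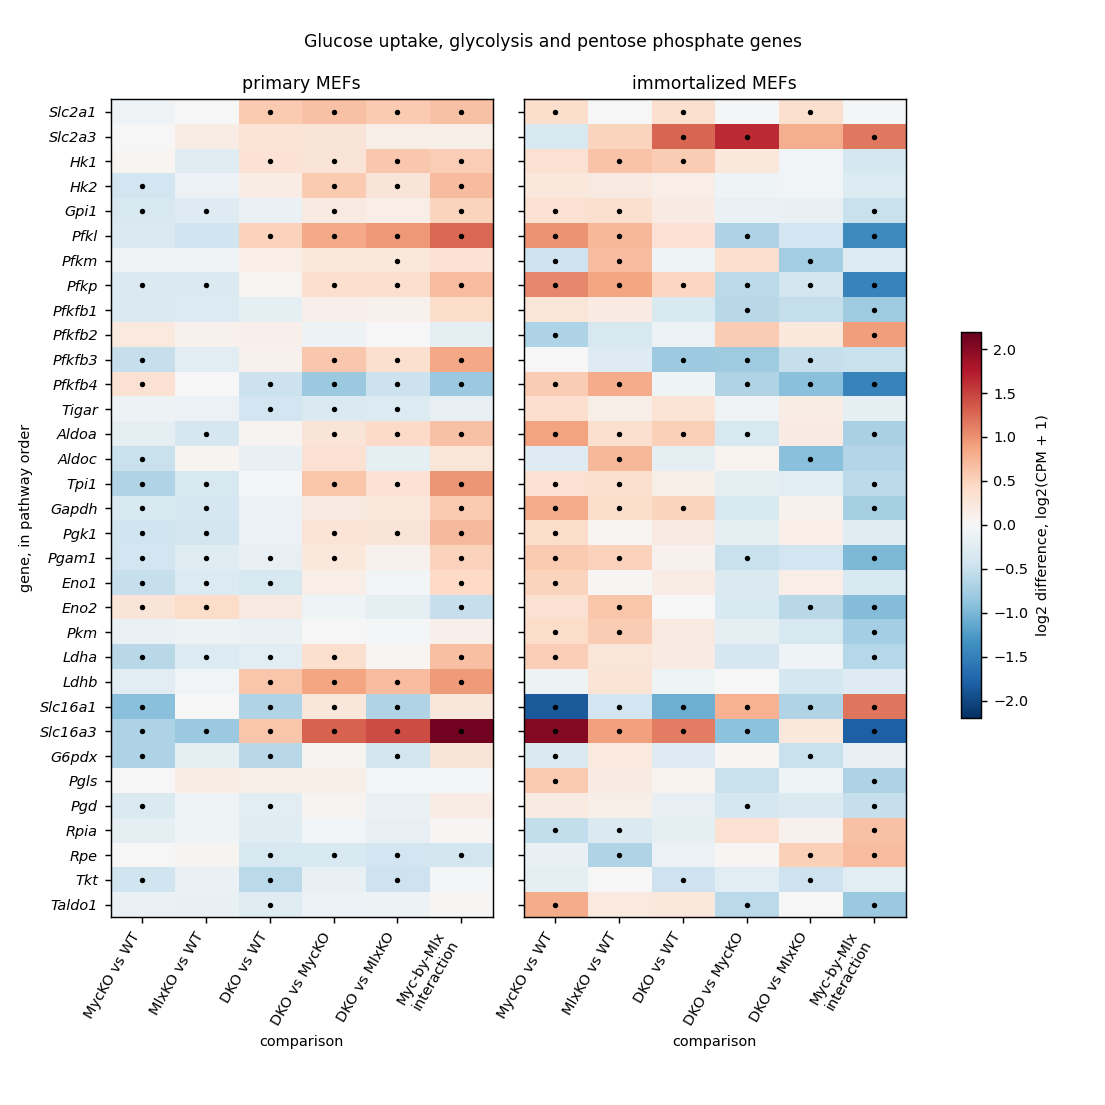
Log2 difference on the log2(CPM + 1) scale for the 33 tested genes (rows, in pathway order) in 6 comparisons (columns) of primary (left) and immortalized (right) MEFs, red for higher and blue for lower, with a dot where the adjusted p was under 0.05. In primary MEFs 16 genes have a dot on blue for MycKO against WT, and in immortalized MEFs 16 have a dot on red.

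The first question was what the loss of Myc does to these genes in primary cells. Of the 33 tested members, 16 were lower and 2 higher in MycKO than in WT, with a median log2 difference of -0.31. Over all 13101 genes tested, 21.9% were called lower and 20.4% higher, and the median of all genes lay between -0.02 and 0.01 in every comparison of either table. The 3 largest falls were those of Slc16a1, the lactate and pyruvate carrier MCT1 (-0.91), Slc16a3, the lactate exporter MCT4 (-0.68), and G6pdx, the first and rate-setting enzyme of the pentose phosphate pathway (-0.67). The 2 members that rose were Pfkfb4 (0.34) and the enolase Eno2 (0.28). Scaling by library totals in place of the deposited scaling gave 24 lower and 0 higher, and the median of all genes then lay at -0.09. Beside these falls, the 10 macrophage markers Ptprc, Cd68, Csf1r, Adgre1, Laptm5, Tyrobp, C1qa, C1qb, Cd14 and Itgam were all called lower in MycKO. Their sum was 171 to 340 CPM in WT, 185 to 218 in MlxKO, 27.1 to 37.3 in MycKO and 63.0 to 123 in DKO libraries, and all 12 proliferation genes were lower as well (Mki67, Top2a and Pcna among them). The epithelial keratins Krt8 and Krt18, the 2 tested of 6 epithelial markers, were lower in all 3 primary knockouts. The part of these in the falls was not tested, and in bulk RNA fewer cells of a type and less RNA per cell cannot be told apart.

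Loss of Mlx alone in primary cells changed fewer genes. In MlxKO 10 members were lower and 1 higher than in WT, with a median of -0.15, against 5.14% lower and 3.75% higher over all genes. Slc16a3 fell most (-0.82), followed by Pgk1 (-0.41) and Aldoa (-0.37), and Eno2 rose (0.41). None of the 7 pentose phosphate enzymes was called. Leaving out the primary library WT1 reduced the 11 calls to 3, WT2 to 4 and MlxKO6 to 5. They were 15 without WT3, where 29 of the 33 members lay below the other WT libraries (median log2 deviation -0.20), and also without MycKO10, where 26 lay below the other MycKO libraries (-0.14). Txnip, the arrestin-like restrainer of glucose uptake, dropped from 116 to 129 CPM in WT to 5.03 to 6.88 in MlxKO cells in the same libraries.

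In primary DKO cells 11 members were lower and 5 higher than in WT, with a median of -0.13, against 25.5% and 24.0% over all genes. The falls with the largest size were Slc16a1 (-0.67), G6pdx (-0.61) and transketolase, Tkt (-0.60). The rises were Ldhb (0.62), Slc16a3 (0.62), Slc2a1 (0.57), the liver-type phosphofructokinase Pfkl (0.51) and Hk1 (0.33). All 12 proliferation genes were lower in DKO (median -1.04), as were 10 of the 12 in MlxKO (median -0.32), and the 10 macrophage markers were lower in DKO (median -1.58), and their part in these results was not tested. The 3 comparisons with WT share its libraries. Within them, Gpi1, Pfkp, Tpi1, Gapdh and Pgk1 were lower in MycKO and in MlxKO but were not called in DKO, Pgam1, Eno1 and Ldha were lower in all 3 genotypes, and Slc16a1, G6pdx, Pgd and Tkt were lower in MycKO and DKO and were not called in MlxKO. Slc2a3, Pfkm, Pfkfb1, Pfkfb2, Pkm, Pgls and Rpia passed the test in none.

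The remaining comparisons set DKO cells against MycKO cells, both without Myc, and against MlxKO cells, both without Mlx. Against MycKO, 15 members were higher and 3 lower in DKO, where 10.6% and 11.0% of all genes were called. The rises were led by Slc16a3 (1.29), Ldhb (0.87) and Pfkl (0.83), and Pfkfb4 (-0.81), the ribulose phosphate epimerase Rpe (-0.33) and Tigar (-0.31) fell. Against MlxKO, 12 were higher and 6 lower, beside 23.3% and 25.9% of all genes, again with Slc16a3 (1.44), Pfkl (0.95) and Ldhb (0.68) at the top. This split turned over to 8 higher and 11 lower with library totals, where the median of all genes lay at -0.12, and to 10 higher and 12 lower after correction for GC content and length.

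The test of whether Mlx loss acts differently with and without Myc is the interaction, the difference DKO minus MycKO less the difference MlxKO minus WT. In primary cells it was called positive for 16 members and negative for 3, with a median of 0.41, where 7.47% of all genes were positive and 6.07% negative. The 16 were Slc2a1, Hk1, Hk2, Gpi1, Pfkl, Pfkp, Pfkfb3, Aldoa, Tpi1, Gapdh, Pgk1, Pgam1, Eno1, Ldha, Ldhb and Slc16a3, so every step from glucose entry to lactate export had a member among them except pyruvate kinase. The largest was Slc16a3 (2.12), followed by Pfkl (1.26) and Tpi1 (0.98). The 3 negative ones were Pfkfb4, Eno2 and Rpe, and Rpe lost its call when any 1 of 9 libraries was left out. Of 20 hypoxia-responsive genes outside glycolysis, among them Bnip3, Car9 and Egln3, 11 had a positive and 1 a negative interaction in the same libraries, with a median of 0.57, and 9 of the 10 macrophage markers had a positive one. Neither these lists nor line of origin was tested for a part in the result. The interaction counts were 16 to 20 when 1 library at a time was left out.

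**Figure D2:**
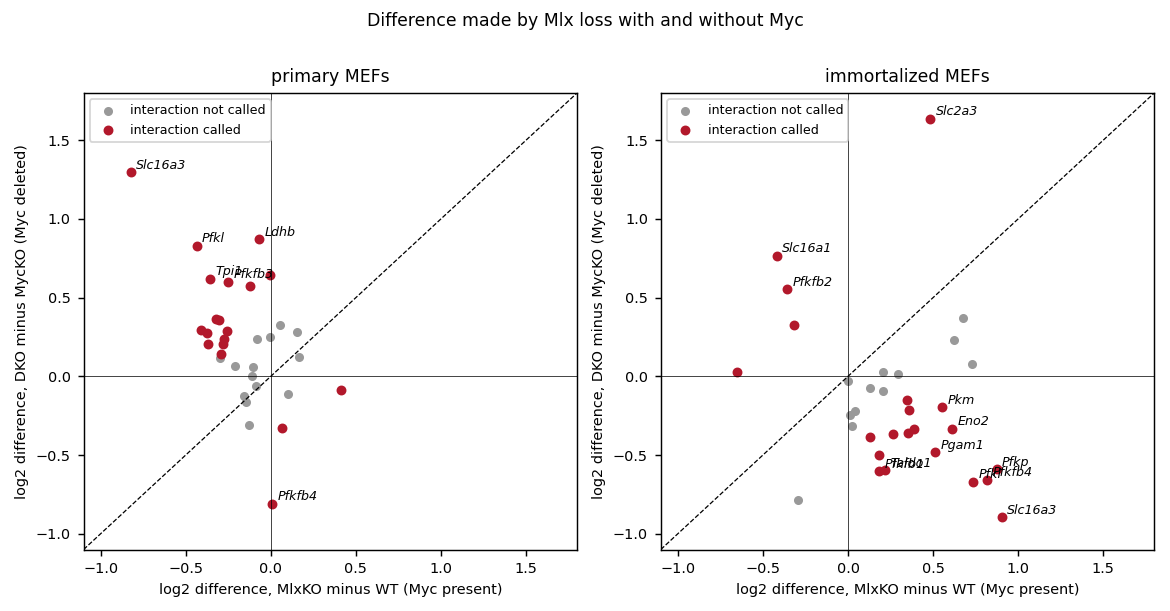
Log2 difference made by Mlx loss in cells with Myc (horizontal axis, MlxKO minus WT) and without Myc (vertical axis, DKO minus MycKO) for the 33 tested genes in primary (left) and immortalized (right) MEFs; the dashed line marks equal differences and red points a called interaction. Most red points lie above the line in primary MEFs (16 of 19) and below it in immortalized MEFs (16 of 21).

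In immortalized MEFs the counts ran the other way. MycKO had 16 members higher and 5 lower than WT, with a median of 0.34, against 24.4% and 23.5% of 12880 genes. Slc16a3 (2.02), the platelet-type phosphofructokinase Pfkp (1.06) and Pfkl (0.99) rose most. Slc16a1 (-1.84), Pfkfb2 (-0.68) and the ribose phosphate isomerase Rpia (-0.55) fell most. A fit of only the 2 groups gave 7 higher and 2 lower, correction for GC content and length gave 9 and 6, leaving out WT2 gave 10 and 3, and leaving out WT4, the library that stood apart, gave 18 and 7. The study reports that most immortalized MycKO cells had become tetraploid or pseudo-tetraploid, while DKO cells stayed euploid. The part of ploidy in the differences that involve immortalized MycKO cells was not tested. MlxKO had 14 members higher and 3 lower, with a median of 0.27, where 19.1% and 19.9% of all genes were called. The rises were led by Slc16a3 (0.90), Pfkp (0.87) and Pfkfb4 (0.82), and the falls were Rpe (-0.65), Slc16a1 (-0.42) and Rpia (-0.32). The Rpia call held in 1 of 12 fits that each left out 1 library and was lost in 5 of 11 alternative settings, edgeR among them. These 17 calls became 6 in a fit of only the 2 groups or without MlxKO6, 9 without WT2, 8 without MlxKO7 and, after correction for GC content and length, 4 higher and 3 lower. Without WT4 there were again 14 higher and 3 lower. Library totals gave 18 higher and 1 lower, with the median of all genes at 0.16.

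Immortalized DKO cells had 7 members higher and 3 lower than WT, with a median of 0.12, beside 10.4% and 8.51% of all genes. Slc2a3, which encodes the high-affinity transporter GLUT3, rose most (1.29), with Slc16a3 (1.13) and Hk1 (0.56), and Slc16a1 (-1.08), Pfkfb3 (-0.79) and Tkt (-0.45) fell. The Hk1 call held in 2 of 12 fits that each left out 1 library and was lost in 3 of 11 alternative settings. The split turned over to 1 higher and 3 lower in a fit of only the 2 groups and to 2 higher and 3 lower without DKO13, and without WT4 it was 8 higher and 3 lower. Against MycKO 2 members were higher and 10 lower (14.8% and 14.6% of all genes), the higher ones being Slc2a3 (1.64) and Slc16a1 (0.77), and the falls led by Slc16a3 (-0.90), Pfkfb3 (-0.79) and Pfkl (-0.67). Against MlxKO 2 were higher, Rpe (0.52) and Slc2a1 (0.35), and 9 lower (16.3% and 13.9%), led by Aldoc (-0.93), Pfkfb4 (-0.92) and Pfkm (-0.76). Leaving out WT4, which enters these 2 comparisons only through the shared spread, gave 5 higher and 15 lower against MycKO and 3 higher and 15 lower against MlxKO. Without DKO14 the first had 7 calls, and without MlxKO6 or DKO15 the second had 6 or 7. Library totals gave 0 higher and 17 lower against MlxKO, and the median of all genes then lay at -0.16.

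The interaction in immortalized cells was called positive for 5 members and negative for 16, with a median of -0.50, against 23.7% and 23.8% of all genes. The negative ones were led by Slc16a3 (-1.80), Pfkfb4 (-1.48) and Pfkp (-1.46), and the positive ones by Slc16a1 (1.18), Slc2a3 (1.15) and Pfkfb2 (0.91). After correction for GC content and length 3 were positive and 8 negative, and with library totals, with the median of all genes at -0.18, 2 and 20. Without WT4 the counts were again 5 and 16. Genes far from glucose metabolism also differed between these groups, and the surface marker Thy1 was 14.9, 21.1 and 123 CPM in WT, 147, 171 and 164 in MlxKO, 639.6, 633 and 635 in MycKO and 10.3, 10.2 and 10.7 in DKO. Between the knockouts, genotype and line of origin cannot be told apart in either table. Against WT the same may hold, since the line or lines of the WT cells are not given. The interaction is built from these comparisons and shares the limit. In immortalized cells its difference MlxKO minus WT also sets cells exposed to the excising drug against unexposed cells, and the part of exposure was not tested.

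The 2 tables were scaled separately and were not tested against each other, but their calls can be set side by side. For MycKO against WT, 9 members were lower in primary and higher in immortalized cells, namely Gpi1, Pfkp, Tpi1, Gapdh, Pgk1, Pgam1, Eno1, Ldha and Slc16a3. They were 9 of the 16 lower in primary and 9 of the 16 higher in immortalized cells, and 27.3% of the 33 members, whereas 310 of the 12402 genes tested in both tables (2.50%) had that pair of calls. Such a share, here and for the pairs below, follows in part from how many members had each call taken alone. A link between the 2 calls gene by gene was not tested. Of the 9, Gpi1, Tpi1, Pgam1, Eno1 and Ldha lost the immortalized call both in a fit of only the 2 groups and after correction for GC content and length, Pgk1 lost it in the first, and Pfkp, Gapdh and Slc16a3 kept it in both. Slc16a1 and G6pdx were lower and Pfkfb4 was higher in both tables, but the immortalized calls of G6pdx and Pfkfb4 were also lost in both of these settings. For MlxKO against WT 7 members (21.2%), namely Gpi1, Pfkp, Aldoa, Tpi1, Gapdh, Pgam1 and Slc16a3, were lower in primary and higher in immortalized cells, against 1.14% of all genes. In the same 2 settings all of them but Pfkp lost the immortalized call, and without the primary library WT1 or WT2 all but Slc16a3 lost the primary call. For the interaction 9 (27.3%) went from positive to negative, against 2.19%. For DKO against WT no member was called in opposite directions. Of all genes, 1.10% were higher in primary and lower in immortalized cells, and 1.26% the reverse. Slc2a1, Hk1 and Slc16a3 were higher in DKO cells of both tables (9.09% of members against 4.56% of all genes). Slc16a1 and Tkt were lower in both (6.06% against 3.93%). The immortalized Hk1 call was the one that 10 of 12 fits with a library left out did not make.

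**Figure D3:**
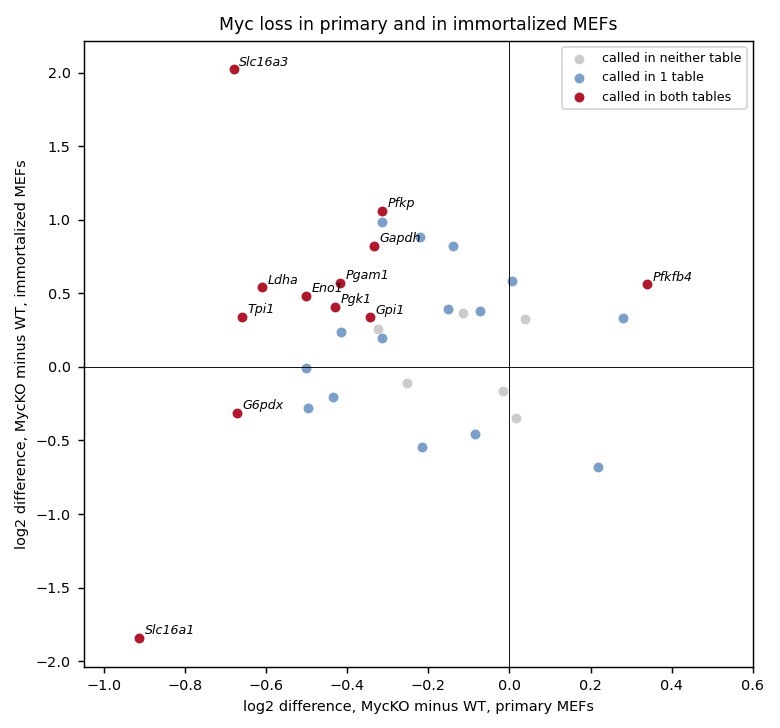
Log2 difference of MycKO minus WT in primary (horizontal axis) and immortalized (vertical axis) MEFs for the 33 tested genes, coloured by the number of tables in which the gene was called. At the upper left, 9 named genes were lower in primary and higher in immortalized cells, and Slc16a1 lies far below 0 in both.

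Glucose entry was described by the transporters. Slc2a1, at chr4:118965908-118996365 (GRCm39), had 131, 122 and 126 CPM in the 3 primary WT libraries, 116, 127 and 135 in MlxKO, 119.9, 119.8 and 119 in MycKO and 185, 191 and 186 in DKO. The 3 DKO libraries lay above the 9 others, which overlapped except that MycKO lay just below WT. The difference of DKO from WT was 0.57 (SE 0.06, adjusted p = 1.1e-06), that of MycKO was -0.07 (SE 0.06, adjusted p = 0.35), and the interaction was 0.65 (SE 0.09, adjusted p = 6.6e-05). In immortalized cells Slc2a1 had 118, 109 and 113 CPM in WT, 101, 122 and 118 in MlxKO, 143, 149 and 149.5 in MycKO and 149, 142 and 143 in DKO. Both genotypes without Myc lay above both with it, and the differences from WT were 0.38 (SE 0.09, adjusted p = 0.0060) for MycKO and 0.35 (SE 0.09, adjusted p = 0.023) for DKO, a call lost without any 1 of the 3 DKO libraries, while the interaction did not pass the test (adjusted p = 0.88). Slc2a3 made up only 4.58% ± 0.953 (SD) of the CPM per kb of the 3 transporters in primary WT cells and 5.12% ± 0.671 in immortalized DKO cells, where it reached 7.56, 5.77 and 7.57 CPM against 3.16, 3.16 and 0.974 in WT. The Slc2a3 interaction in immortalized cells (1.15, SE 0.42, adjusted p = 0.041) lost its call in 6 of 9 alternative settings, edgeR among them.

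The trapping of glucose rests on hexokinase. Hk1, the constitutive form bound to mitochondria, was the main hexokinase transcript in every genotype, with 79.4% ± 1.31 of the pair in primary WT and 86.6% ± 1.63 in immortalized WT cells. Hk2, the inducible form and a known Myc target, had 51.0, 47.7 and 42.7 CPM in primary WT, 38.0, 32.3 and 34.9 in MycKO and 53.7, 50.8 and 53.0 in DKO libraries. All 3 MycKO libraries were below WT, the lowest DKO library lay just inside the WT range, and the difference of MycKO from WT was -0.42 (SE 0.08, adjusted p = 0.00080). In immortalized cells Hk2 passed the test in no comparison. Gpi1, glucose 6-phosphate isomerase, stood at 335 ± 26.8 CPM in primary WT and 264 ± 16.7 in MycKO cells, and at 198 ± 16.6 and 250.5 ± 14.9 in the immortalized ones (mean ± SD, n = 3).

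Phosphofructokinase makes the committing step of glycolysis. In primary cells Pfkl had 110.2, 113 and 94.6 CPM in WT, 79.2, 76.0 and 78.5 in MlxKO, 98.2, 61.5 and 101 in MycKO and 148, 144 and 163 in DKO. The DKO libraries were the highest of all and the MlxKO libraries lay below WT, while MycKO was split, with the library MycKO10 lower than the other two. The interaction was 1.26 (SE 0.19, adjusted p = 0.00021). In immortalized cells Pfkl had 36.2, 43.1 and 51.6 CPM in WT, 59.2, 84.4 and 76.7 in MlxKO, 81.1, 91.7 and 87.2 in MycKO and 65.4, 47.5 and 50.6 in DKO, so that both single knockouts lay above WT and DKO overlapped with it. The interaction there was -1.41 (SE 0.24, adjusted p = 0.00055). Pfkm, the muscle-type subunit, lost share to the others in immortalized MycKO cells, with 11.8% ± 1.04 of phosphofructokinase CPM per kb against 27.9% ± 6.002 in WT, 26.2% ± 2.06 in MlxKO and 21.6% ± 1.25 in DKO, and it was called lower in MycKO (-0.46) and higher in MlxKO (0.68). In primary cells Pfkm was called only as higher in DKO than in MlxKO (0.23).

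The bifunctional PFKFB enzymes make and remove fructose 2,6-bisphosphate, the strongest allosteric activator of phosphofructokinase. Pfkfb3, whose product strongly favours synthesis, had 34.9, 33.0 and 34.9 CPM in primary WT, 30.7, 27.8 and 27.6 in MlxKO, 23.0, 26.9 and 22.02 in MycKO and 35.5, 39.9 and 35.0 in DKO. MycKO lay below all other genotypes, and the difference from WT was -0.50 (SE 0.09, adjusted p = 0.00022), with an interaction of 0.85 (SE 0.12, adjusted p = 0.00017). Pfkfb4 went against it, with 9.76, 14.2 and 10.1 CPM in WT, 14.9, 14.1 and 14.2 in MycKO and 7.001, 7.82 and 8.70 in DKO. Its rise in MycKO (0.34, SE 0.13, adjusted p = 0.038) lost its call in 4 of 11 alternative settings, and 1 WT library overlapped with MycKO. DKO lay below all WT and MycKO libraries (-0.47, SE 0.13, adjusted p = 0.0051 against WT). As shares of the 4 PFKFB transcripts per kb, Pfkfb3 and Pfkfb4 were 31.2% ± 2.27 and 30.5% ± 1.58 in primary MycKO but 47.3% ± 2.95 and 16.3% ± 1.42 in DKO cells. Immortalized DKO cells had less Pfkfb3 (9.38, 11.0 and 8.06 CPM) than WT (16.6, 18.5 and 16.01), with Pfkfb2 as the leading form (49.5% ± 0.560). Tigar, a p53 target that removes fructose 2,6-bisphosphate and favours the pentose phosphate pathway, was lower in primary DKO cells (11.9, 11.9 and 11.7 CPM) than in WT (17.2, 15.6 and 15.9), with a difference of -0.43 (SE 0.09, adjusted p = 0.00085), and passed no test in immortalized cells. Pfkfb1 passed no test in primary cells, and its calls in immortalized cells were lost in 5 of 9 or 5 of 10 alternative settings.

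**Figure D4:**
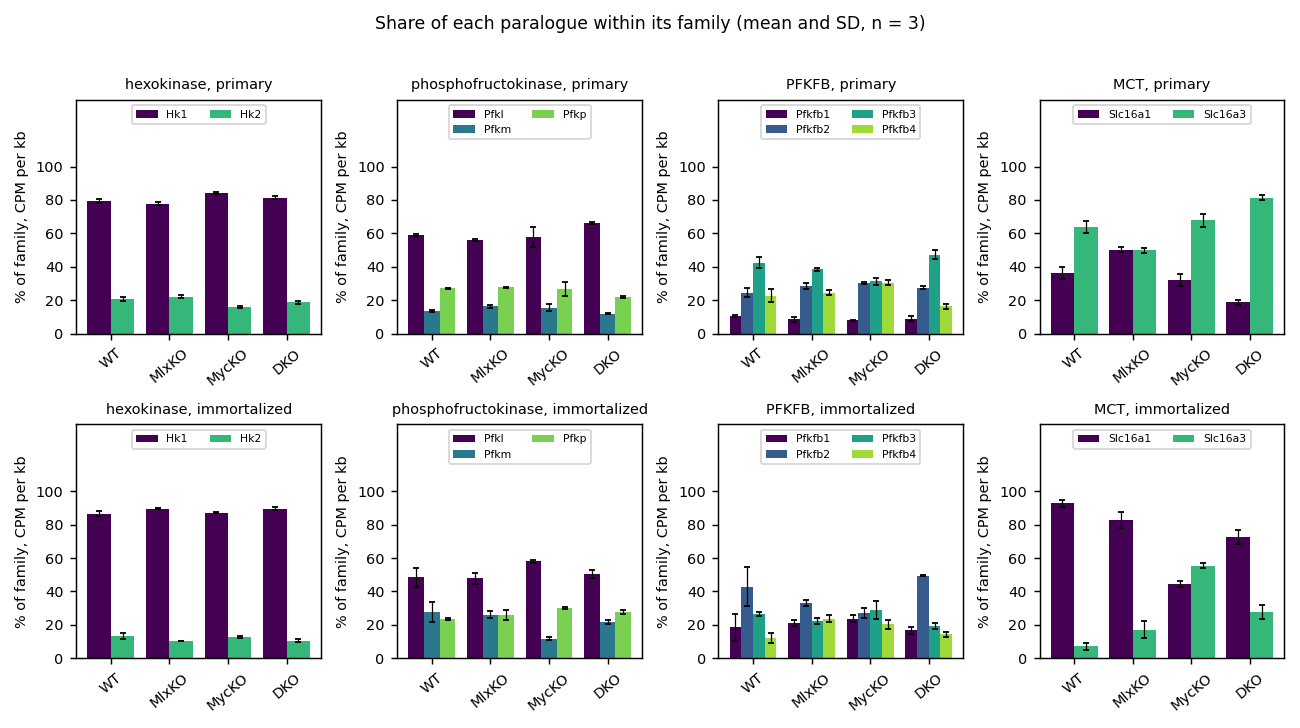
Share of each paralogue in the summed CPM per kb of its family (bars, mean; whiskers, SD of 3 libraries) for hexokinase, phosphofructokinase, the PFKFB enzymes and the monocarboxylate transporters (MCT) in the 4 genotypes of primary (top) and immortalized (bottom) MEFs. Slc16a3 makes up 7.21% ± 1.96 of the pair in immortalized WT and 55.5% ± 1.68 in MycKO cells.

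The split of fructose bisphosphate and the pay-off steps followed in the most abundant genes. Tpi1, triose phosphate isomerase, had 388, 377 and 291 CPM in primary WT, 276, 266 and 274 in MlxKO, 238, 186 and 242 in MycKO and 342, 334 and 341 in DKO. Both single knockouts lay below all WT libraries, and DKO lay inside the WT range. The difference of MycKO from WT was -0.66 (SE 0.10, adjusted p = 6.5e-05) and the interaction was 0.98 (SE 0.14, adjusted p = 0.00017). The call in MlxKO (-0.36) held in 4 of 12 fits that each left out 1 library. The ATP-making phosphoglycerate kinase Pgk1 had 667, 641 and 558 CPM in WT, 465, 453 and 484 in MlxKO, 478, 424 and 481 in MycKO and 578, 563 and 556 in DKO. Both single knockouts again lay below all WT libraries, and 1 of the 3 DKO libraries lay just below them. The Pgk1 interaction was 0.71 (SE 0.10, adjusted p = 0.00012). Eno1 had 2126, 2050.1 and 1962 CPM in WT and 1575, 1653 and 1552 in DKO, a difference of -0.36 (SE 0.06, adjusted p = 0.00016). Eno2, the neuronal enolase, carried 0.816% ± 0.0717 of enolase CPM per kb in primary WT and 1.42% ± 0.241 in MycKO cells. Pkm was not called in any primary comparison, and its WT libraries ran from 1736 to 2112 CPM.

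In immortalized MycKO cells Aldoa, Tpi1, Gapdh, Pgk1, Pgam1, Eno1 and Pkm were called higher than in WT. Aldoa, the main aldolase, had 379, 454 and 380.3 CPM in WT, 477, 551 and 517 in MlxKO, 710.1, 750.5 and 774 in MycKO and 602, 546 and 593 in DKO. All 9 knockout libraries lay above all 3 WT libraries, MycKO highest, and the difference of MycKO from WT was 0.88 (SE 0.11, adjusted p = 6.0e-05). Gapdh had 718, 766 and 656 CPM in WT and 1394, 1193 and 1203 in MycKO, with no overlap and a difference of 0.82 (SE 0.13, adjusted p = 0.00028). Pgam1 had 318, 314 and 519 CPM in WT, where the third library, WT4, lay near the single knockouts (599, 539 and 530.1 in MycKO). Its difference of 0.57 (SE 0.16, adjusted p = 0.013) lost its call in a fit of only the 2 groups and after correction for GC content and length. Eno2 was called higher in MlxKO (0.61), and Aldoc, which reached at most 2.70 CPM in any library of either table, likewise (0.73).

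Lactate production and export included the members with the widest differences. Ldha, at chr7:46490899-46505061, encodes the lactate dehydrogenase subunit that favours lactate. It had 1059, 1036 and 927 CPM in primary WT, 757, 798 and 897 in MlxKO, 663, 614 and 703 in MycKO and 862, 836 and 835 in DKO. All 9 knockout libraries lay below all 3 WT libraries and MycKO lay lowest. The differences from WT were -0.61 (SE 0.07, adjusted p = 5.9e-06) for MycKO, -0.30 (SE 0.07, adjusted p = 0.016) for MlxKO and -0.25 (SE 0.07, adjusted p = 0.0094) for DKO, and the interaction was 0.66 (SE 0.10, adjusted p = 0.00034). In immortalized cells it had 527, 552 and 788 CPM in WT, 665, 756 and 795 in MlxKO, 1003, 825 and 854 in MycKO and 696, 664 and 714 in DKO. MycKO lay above WT (0.54, SE 0.15, adjusted p = 0.013), though 1 WT library, WT4, came close to the lowest MycKO library, and the call was lost in a fit of only the 2 groups and after correction for GC content and length. Ldhb, the subunit that favours pyruvate, rose in primary DKO cells from 15.2, 16.8 and 14.4 to 24.5, 24.5 and 23.6 CPM (0.62, SE 0.12, adjusted p = 0.00033), was also higher there than in either single knockout, and its share of lactate dehydrogenase CPM per kb went from 1.57% ± 0.0974 to 2.89% ± 0.0542. In immortalized cells Ldhb passed the test in no comparison.

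Slc16a1, at chr3:104545811-104565780, was the member with the largest fall in MycKO against WT in both tables. It had 47.7, 42.7 and 44.1 CPM in primary WT, 43.8, 46.8 and 43.3 in MlxKO, 24.1, 22.8 and 23.1 in MycKO and 29.2, 26.7 and 27.7 in DKO. WT and MlxKO overlapped, and MycKO and DKO lay below them, with differences from WT of -0.91 (SE 0.07, adjusted p = 7.7e-08) and -0.67 (SE 0.07, adjusted p = 1.6e-06). In immortalized cells the values were 105, 83.5 and 114 CPM in WT, 81.8, 70.1 and 72.8 in MlxKO, 28.9, 25.4 and 27.3 in MycKO and 42.7, 48.8 and 49.6 in DKO. No genotype overlapped with WT, and the difference of MycKO from WT was -1.84 (SE 0.13, adjusted p = 5.8e-07). Slc16a3, at chr11:120838846-120851694, had 92.8, 85.9 and 66.1 CPM in primary WT, 47.2, 45.0 and 43.5 in MlxKO, 52.8, 41.1 and 57.7 in MycKO and 118, 128 and 127 in DKO. Both single knockouts lay below WT and DKO lay above it, and the differences from WT were -0.68 (SE 0.12, adjusted p = 0.00020), -0.82 (SE 0.12, adjusted p = 0.00035) and 0.62 (SE 0.12, adjusted p = 0.00040) in MycKO, MlxKO and DKO, with an interaction of 2.12 (SE 0.17, adjusted p = 3.3e-07). In immortalized cells Slc16a3 had 6.03, 6.49 and 11.9 CPM in WT, 11.1, 19.6 and 16.8 in MlxKO, 34.2, 34.1 and 35.9 in MycKO and 20.9, 16.2 and 17.8 in DKO. MycKO lay above every other library and the difference from WT was 2.02 (SE 0.24, adjusted p = 3.6e-05). As a share of the pair, Slc16a1 made up 92.8% ± 1.96 of its CPM per kb in immortalized WT and 44.5% ± 1.68 in MycKO cells, but 36.2% ± 3.75 in primary WT and 18.7% ± 1.32 in primary DKO cells.

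**Figure D5:**
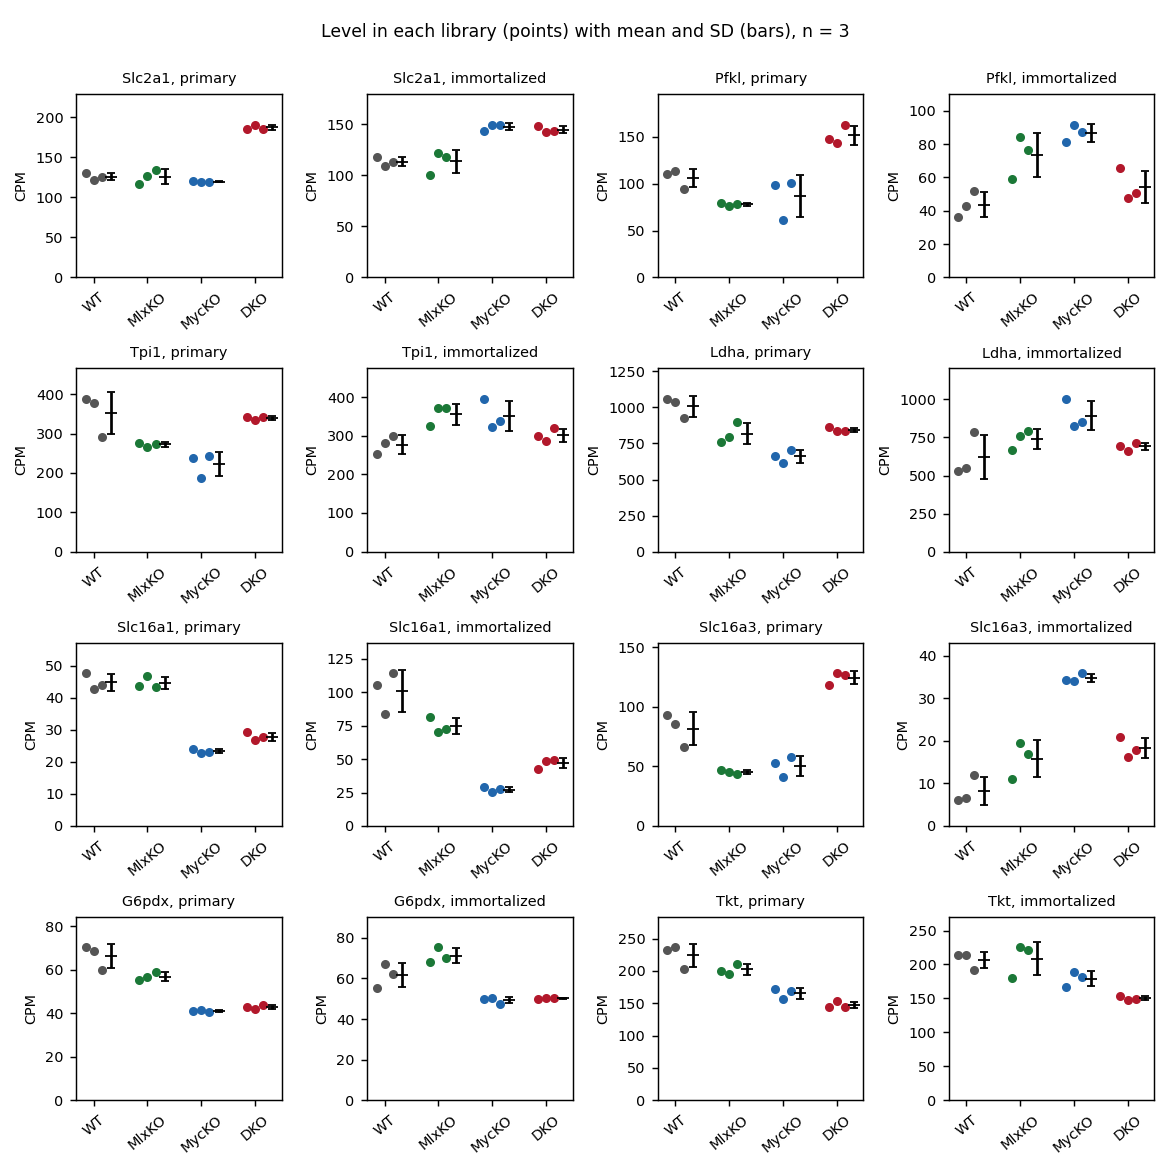
CPM (vertical axis, from 0) of 8 genes in each of the 3 libraries per genotype (points) with the mean and SD beside them, for primary and immortalized MEFs. Slc16a1 is lowest in MycKO in both tables, while Slc16a3 is highest in DKO in primary and in MycKO in immortalized MEFs.

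The promoter windows of the members were searched for the E-box CACGTG, which reads the same on both strands. RefSeq windows from 250 bases before to 50 after the transcript start were at hand for 34 of the 36 members, on the GRCm38.p6 build, and 6 of them held the motif (17.6%), namely Pfkm, Pfkfb2, Pfkfb3, Fbp2, Ldha and Slc16a1. The motif was in 8.09% of the 27025 genes with a window and in 11.7% of the 10253 of these that were tested in primary cells, a set without Fbp1 and Fbp2. The shorter core ACGTG on either strand, which is part of the hypoxia response element and also lies inside CACGTG, was counted outside E-boxes and occurred in 16 of the 34 members (47.1%), in 15.3% of all genes with a window and in 2052 of the 10253 tested ones. A match describes the letters of the window and says nothing about binding. The E-boxes of Slc16a1, Ldha and Pfkfb3 are shown because these are the members with a motif that passed the test in a primary knockout against WT, and each lies 5′ to 3′ on the gene's strand with the motif in capitals and 12 bases on either side.
Slc16a1, 200 bases upstream: gcggcgccgggtCACGTGgcgggaaggggg
Ldha, 145 bases upstream: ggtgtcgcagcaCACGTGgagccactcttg
Ldha, 48 bases upstream: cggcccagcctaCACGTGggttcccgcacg
Pfkfb3, 53 bases upstream: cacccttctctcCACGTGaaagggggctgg
By exact match on GRCm39 they lie at chr3:104545768-104545797 on the plus strand, just before the annotated start of Slc16a1 and in an exon of the antisense gene Gm65697, at chr7:46495071-46495100 and chr7:46495168-46495197 on the plus strand, and at chr2:11506937-11506966 on the minus strand. In GENCODE vM39 the first Ldha site lies in no exon and the second in the 5′ UTR of 1 Ldha isoform, and the Pfkfb3 site overlaps the 5′ UTR of 2 Pfkfb3 isoforms.

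The pentose phosphate pathway branches off at glucose 6-phosphate. Of its 3 oxidative enzymes, G6pdx had 70.2, 68.4 and 59.9 CPM in primary WT, 55.1, 56.6 and 58.8 in MlxKO, 41.2, 41.3 and 40.6 in MycKO and 42.8, 42.1 and 44.0 in DKO. MycKO and DKO lay close together, below all libraries with Myc, with differences from WT of -0.67 (SE 0.07, adjusted p = 1.2e-06) and -0.61 (SE 0.07, adjusted p = 2.4e-06), and the interaction was not called (adjusted p = 0.077). Pgd, the second NADPH-forming enzyme, was lower in MycKO (-0.31) and DKO (-0.26), and Pgls, the lactonase between them, was not called in any primary comparison. Among the 4 non-oxidative enzymes Tkt fell from 233, 236 and 204 CPM in WT to 172, 156 and 169 in MycKO and 144, 153 and 145 in DKO, with differences of -0.43 (SE 0.07, adjusted p = 6.1e-05) and -0.60 (SE 0.07, adjusted p = 1.7e-06). Of the 3 knockouts, Taldo1, transaldolase, was called lower in DKO (-0.27), as was Rpe (-0.35), and Rpia was not called. None of the 7 enzymes was called higher in any primary knockout, though the Pgls libraries of MlxKO and of DKO all lay above those of WT. Likewise without a call, the Rpia libraries of MycKO and of DKO and the G6pdx libraries of MlxKO all lay below those of WT. The interaction was called for Rpe only.

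In immortalized cells the branch was mixed. G6pdx was again lower in MycKO (-0.31, SE 0.10, adjusted p = 0.019), with 49.997, 50.2 and 47.5 CPM against 55.3, 67.2 and 62.3 in WT, while Taldo1 rose from 75.0, 79.0 and 79.4 CPM in WT to 161, 129 and 128 in MycKO (0.82, SE 0.12, adjusted p = 0.00016). Rpia fell from 18.2, 19.8 and 20.3 CPM in WT to 12.4, 13.8 and 12.8 in MycKO (-0.55, SE 0.12, adjusted p = 0.0026). Rpe fell in MlxKO, from 55.0, 51.4 and 56.8 to 38.1, 30.1 and 34.8 CPM (-0.65, SE 0.14, adjusted p = 0.0042), and Tkt fell in DKO (-0.45, SE 0.11, adjusted p = 0.012), where its libraries had 154, 148 and 149.8 CPM against 214, 213 and 192 in WT. Pgls rose in MycKO (0.58), and Pgd was called lower in DKO than in MycKO (-0.38) but not in any knockout against WT. Tkt and Slc16a1 were the 2 members called lower in DKO cells of both tables.

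Other genes around the pathway were read from lists. Against WT, the shares of all genes called higher and lower were 20.4% and 21.9% in primary MycKO and 3.75% and 5.14% in MlxKO. They were 24.0% and 25.5% in primary DKO. In immortalized cells they were 24.4% and 23.5% in MycKO, 19.1% and 19.9% in MlxKO and 10.4% and 8.51% in DKO. Several of the list counts lay near these shares. Of 31 further isoforms and family members of the same steps, 15 were tested in each table, and in primary MycKO cells 6 were higher and 3 lower, with the myeloid hexokinase Hk3 at -1.72 beside the fall of the macrophage markers. Of 27 genes on branches such as glycogen, hexosamine and glycerol phosphate synthesis, 25 were tested in primary cells, with 3 higher and 10 lower in MycKO, 1 higher and 2 lower in MlxKO, and 7 higher and 8 lower in DKO. Pygl, liver glycogen phosphorylase, was the one with the widest primary interaction (2.14, SE 0.22, adjusted p = 4.3e-06) and was also higher in DKO than in WT in both tables (1.24 and 1.75). Of 21 regulators of glucose use, 19 were tested in primary cells, with 3 higher and 5 lower in MycKO, 1 higher and 2 lower in MlxKO, and 8 higher and 3 lower in DKO. The 2 that fell in primary MlxKO were Txnip (-4.13, SE 0.09, adjusted p = 2.6e-14) and Arrdc4 (-2.73, SE 0.14, adjusted p = 2.2e-09). Txnip had 23.7, 26.1 and 23.6 CPM in primary DKO cells, above MlxKO and below WT, and its interaction was 1.66 (SE 0.13, adjusted p = 3.2e-07). In immortalized cells Txnip had 60.7, 74.3 and 33.8 CPM in WT, 4.40, 2.55 and 4.54 in MlxKO and 0.682, 1.30 and 1.49 in DKO. Of the 20 hypoxia-responsive genes, 6 were higher and 5 lower in primary MycKO, 1 and 6 in MlxKO and 12 and 0 in DKO, with 6 and 6 in immortalized MycKO, 3 and 6 in MlxKO and 2 and 3 in DKO. In immortalized MycKO cells the further isoforms had 3 higher and 4 lower, the branch genes 4 and 7 of 26 tested, and the regulators 2 and 10 of 18 tested.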

How the data were processed

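Poly-A RNA-seq libraries of primary and immortalized MEFs were made by the authors with a stranded kit and processed in CLC Genomics Workbench 22 against GRCm39. The deposited values are a CPM signal per gene, 1 table per cell state. Column sums differed, and every value was a whole multiple of 1 read (tolerance 0.05), so library sizes were recovered. Whether counting used strand, and how reads with several matches were assigned, is not given in the sources used here.

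Genes that reached 1 CPM in 3 or more of the 12 libraries entered a fit by limma 3.58.1 (R 4.3.3) on log2(CPM + 1), with a mean trend, the 4 genotypes of a table in 1 fit, and Benjamini-Hochberg adjustment over all genes (threshold 0.05). As the deposited unit is CPM and not counts, edgeR 4.0.16 and DESeq2 1.42.0 were run on the recovered reads as alternatives. Other alternatives were a pseudocount of 0.1, no filter or a mean of 5 CPM, 2 other scalings, the compared groups alone, a robust prior, a log2 difference of at least 1, correction for GC content and length (mgcv 1.9.3), agreement of 3 tools, and leaving out each library. On data simulated for primary MycKO against WT (12931 genes), limma recovered 98% of 198 changed genes. It made 6 false calls among 12733 unchanged ones. The planted changes had a log2 size of at least 1 at a fixed dispersion of 0.01. No member changed that much in this comparison, so recovery at the sizes reported was not measured. The column numbers of the libraries are not the replicate numbers of the labels and paired nothing.

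Per-kilobase levels and family shares used GENCODE vM39 canonical transcripts. Promoters were RefSeq windows (GRCm38.p6), matched by symbol and placed on GRCm39 by exact sequence match. Named with their values were Slc2a1, Slc2a4 (too low to test), Ldha and the 3 largest rises and falls among called members per comparison, with Myc, Mlx, Txnip, Arrdc4 and list genes of largest change. Further members were named afterwards by role, with their values already seen. The members and lists were chosen with earlier results of these data known. Overlap counts rest on 3 libraries a group, and precision is limited by counting error and by that number.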

Additional observations from a re-analysis of the deposited data

Results flagged for a closer look

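In primary MEFs the log2 difference made by Mlx loss differed with and without Myc, by the interaction test of limma, in 19 genes. It was larger (more positive) without Myc than with it in 16 of them, namely Slc16a3 (2.12), Pfkl (1.26), Tpi1 (0.98), Ldhb (0.94), Pfkfb3 (0.85), Pgk1 (0.71), Hk2 (0.70), Pfkp (0.69), Ldha (0.66), Aldoa (0.65), Slc2a1 (0.65), Gapdh (0.57), Hk1 (0.55), Pgam1 (0.51), Gpi1 (0.49) and Eno1 (0.43). It was smaller (more negative) without Myc than with it in 3 of them, namely Pfkfb4 (-0.82), Eno2 (-0.50) and Rpe (-0.40).

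In immortalized MEFs the log2 difference made by Mlx loss differed with and without Myc, by the interaction test of limma, in 21 genes. It was larger (more positive) without Myc than with it in 5 of them, namely Slc16a1 (1.18), Slc2a3 (1.15), Pfkfb2 (0.91), Rpe (0.68) and Rpia (0.65). It was smaller (more negative) without Myc than with it in 16 of them, namely Slc16a3 (-1.80), Pfkfb4 (-1.48), Pfkp (-1.46), Pfkl (-1.41), Pgam1 (-0.99), Eno2 (-0.95), Taldo1 (-0.81), Pfkfb1 (-0.79), Pkm (-0.75), Gapdh (-0.72), Aldoa (-0.71), Pgls (-0.68), Ldha (-0.63), Tpi1 (-0.57), Pgd (-0.51) and Gpi1 (-0.50).

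Some genes were called in opposite directions in the 2 tables, with no overlap between the groups in either, but that difference was not tested, since the tables were scaled separately. Their log2 differences are given in the order primary and immortalized. For MycKO against WT these were Gpi1 (-0.34 and 0.34), Pfkp (-0.31 and 1.06), Tpi1 (-0.66 and 0.34), Pgk1 (-0.43 and 0.41), Pgam1 (-0.42 and 0.57), Eno1 (-0.50 and 0.48), Ldha (-0.61 and 0.54) and Slc16a3 (-0.68 and 2.02). For MlxKO against WT these were Gpi1 (-0.28 and 0.34), Pfkp (-0.32 and 0.87), Aldoa (-0.37 and 0.35), Tpi1 (-0.36 and 0.36) and Gapdh (-0.37 and 0.39). For DKO against MycKO these were Pfkl (0.83 and -0.67), Pfkp (0.37 and -0.59), Pfkfb3 (0.60 and -0.79), Aldoa (0.28 and -0.36), Pgam1 (0.24 and -0.48) and Slc16a3 (1.29 and -0.90). By calls alone, 18.2% of members went from higher in primary to lower in immortalized cells, against 1.57% of all genes. For DKO against MlxKO these were Pfkm (0.23 and -0.76), Pfkp (0.37 and -0.40), Pfkfb3 (0.35 and -0.50) and Rpe (-0.42 and 0.52). By calls alone, 9.09% of members went from higher to lower, against 2.94% of all genes. The reverse pair, that of Rpe, was no more frequent in members (3.03%) than in all genes (3.46%). Groups of 3 libraries were too small for the test of single outlying samples.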

How the results depend on the processing

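Sign was followed for at most the 3 largest called rises and falls of each comparison, with Slc2a1 and Ldha. No called difference of these genes changed sign, but the split between higher and lower members turned over in 3 comparisons. Primary DKO against MlxKO went from 12 higher and 6 lower to 8 and 11 with library totals and 10 and 12 after correction for GC content and length. Immortalized DKO against WT went from 7 and 3 to 1 and 3 with only the compared groups and 2 and 3 without DKO13, and immortalized DKO against MycKO from 2 and 10 to 1 and 0 at a log2 difference of at least 1. Requiring a log2 difference of at least 1 left, in the order MycKO, MlxKO and DKO against WT, DKO against MycKO, DKO against MlxKO and interaction, 0, 0, 0, 1, 1 and 2 members in primary and 3, 0, 3, 1, 0 and 6 in immortalized MEFs. Without the filter on low values primary MlxKO had 7 calls. Fitting only the compared groups gave 9, 6 and 4 calls in immortalized MycKO, MlxKO and DKO against WT and 18 in DKO against MlxKO. Correction for GC content and length gave 7 in immortalized MlxKO and 11 in the immortalized interaction, and library totals gave 17 in immortalized DKO against MlxKO. The cause of these moves was not tested, apart from the stricter size rule and the fewer samples that the settings impose themselves.

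Leaving out 1 library at a time, the calls ran, in the same order, from 14 to 20, 3 to 15, 14 to 19, 13 to 18, 16 to 21 and 16 to 20 in primary and from 13 to 25, 6 to 17, 5 to 11, 7 to 20, 6 to 18 and 15 to 21 in immortalized MEFs. Of the values of the genes followed for sign, each a single gene under an alternative, 1918 kept direction and side of the threshold. Another 192 lost the call and 6 gained it. No paired analysis was possible because the table columns carry library numbers that the labels do not tie to replicate numbers. Depth limits Fbp1 and Fbp2, with at most 1 read in a library, and Slc2a4, which stayed under the filter.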
